A study of Homo sapiens with 6 samples.

Results

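The insulin-like growth factor (IGF) axis was examined in A673 Ewing sarcoma cells through 10 genes: the ligands IGF1 and IGF2, the receptor IGF1R, the docking protein IRS1 and the binding proteins IGFBP2 to IGFBP7. Members were the gene probes whose transcript accession belongs to one of these genes, which gave 13 of the 50599 gene probes on the array, with a pair of probes each for IGF1, IGF2 and IRS1 and a single probe for each other gene. The 6 Agilent arrays, read in 1 colour (Cy3), hold 3 RNA samples of A673/TR/empty cells, called control arrays, and 3 of A673/TR/LOX-PP cells, called LOX-PP arrays. Both lines carry the tetracycline repressor (TR), the A673/TR/empty cells with the lentiviral vector alone and the A673/TR/LOX-PP cells with a V5-tagged cDNA of the lysyl oxidase propeptide (LOX-PP) that doxycycline switches on. Each line came from its own infection. The methods describe the selection of stable clones and the choice of those with the highest expression under doxycycline. Neither they nor the labels say whether the cultures on the arrays were 1 clone or a mixed population. The effect of the propeptide and a difference between the lines or clones therefore cannot be told apart. The labels give doxycycline at 1 µM for 72 h for all 6 samples, whereas the methods name it clearly only for the A673/TR/LOX-PP cells, so the sources leave unclear if the controls were given it.

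IGF1 and IGF2 are secreted peptides that bind the receptor tyrosine kinase IGF1R, which phosphorylates the docking protein IRS1 and so passes the signal to the PI3K/AKT and RAS/ERK pathways. The IGFBPs are secreted proteins that hold the ligands in the extracellular space, where they can block or prolong their action, and proteases that cleave them release the ligands again. Ewing sarcoma cells are known to depend on IGF1R signalling, and IGFBP3 is a known target of repression by EWS/FLI1, the fusion protein that drives these tumors.

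The labels were checked first. The probe of LOX had a log2 signal of -0.09, 0.36 and 0.11 in the controls, compared with -0.12, -0.68 and -1.29 on the LOX-PP arrays. It was not higher where the propeptide was to be induced (difference -0.82, adjusted p = 0.217, limma). Every LOX-PP array lay below every control array. The files do not show where in the transcript the probe lies, so every direction below rests on the labels. Apart from the arrays, the paper reported induced LOX-PP mRNA by RT-PCR and the secreted propeptide in A673/TR/LOX-PP cells given doxycycline. All 9 markers of Ewing sarcoma cells were well above background on all 6 arrays. Of the 4 epithelial markers, CDH1 and KRT5 were on no array well above background, EPCAM was dim, and KRT14 rose by 5.26 on the log2 scale (adjusted p = 0.000142), so that the summed linear signal of the list was 0.193 to 0.224 in the controls, compared with 3.96 to 5.13 on the LOX-PP arrays, and its part in the results was not tested. The summed signal of the fibroblast, blood and endothelial lists ranged from 34.9 to 40.6, 0.537 to 0.702 and 0.219 to 0.289 on the control arrays and from 31.9 to 51.1, 0.536 to 1.10 and 0.299 to 0.514 on the LOX-PP arrays. The fibroblast sum is carried by THY1 (difference 0.089, adjusted p = 0.876), whereas LUM fell with a difference of -2.29 (adjusted p = 0.0191), well above background on 2 of the 3 control arrays and 1 of the 3 LOX-PP arrays. PECAM1, an endothelial marker, was higher by 1.36 with groups that did not overlap, without passing the test (adjusted p = 0.0955). The part of these markers in the results was not tested. The EWS/FLI1 partner genes were measured on every array, with a difference of -0.21 for FLI1 (adjusted p = 0.619) and -0.51 for EWSR1 (adjusted p = 0.287). The groups of EWSR1 did not overlap. On the same list of Ewing sarcoma markers, NKX2-2 and STEAP1 were higher by 0.98 and 0.44, also with groups that did not overlap. Neither passed the test (adjusted p = 0.0782 and 0.279), and the groups of the remaining markers on that list overlapped. Between 56.9% and 74.8% of the gene spots of an array were well above background. LOX-PP replicate 1 was hybridised on slide 2 and scanned on another day, while the other 5 arrays shared slide 1 and a scan day. The net signal of the negative controls ran from 64.4 on LOX-PP replicate 1 to 575 on LOX-PP replicate 2, and its part in the differences of dim probes was not tested.

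RefSeq promoter windows were found for 8 of the 10 genes, all but IGF2 and IGFBP7, and 4 of them are shown here because they belong to the binding protein with the clearest difference (IGFBP5), to the gene that EWS/FLI1 is known to repress (IGFBP3), to another with groups that did not overlap (IGFBP4) and to one with little difference (IGFBP6). Each run covers the 250 bases before the annotated start of the gene (GRCh38.p14), read 5′ to 3′ on the strand of the gene, and capitals mark GGAA or its reverse complement TTCC, the core of the sites bound by ETS factors such as FLI1. IGFBP5 lies at chr2:216695550-216695799, minus strand, IGFBP3 at chr7:45921273-45921522, minus strand, IGFBP4 at chr17:40443200-40443449, plus strand, and IGFBP6 at chr12:53097417-53097666, plus strand.
IGFBP5: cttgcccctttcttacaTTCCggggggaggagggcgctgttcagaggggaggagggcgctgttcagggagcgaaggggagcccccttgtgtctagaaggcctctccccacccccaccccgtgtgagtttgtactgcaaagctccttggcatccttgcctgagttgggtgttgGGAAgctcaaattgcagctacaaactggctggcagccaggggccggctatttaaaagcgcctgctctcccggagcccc
IGFBP3: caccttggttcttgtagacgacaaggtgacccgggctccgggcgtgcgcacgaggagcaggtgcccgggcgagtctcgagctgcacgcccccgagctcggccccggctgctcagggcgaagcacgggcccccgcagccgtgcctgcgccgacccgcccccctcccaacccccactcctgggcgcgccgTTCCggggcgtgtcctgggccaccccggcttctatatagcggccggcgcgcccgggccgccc
IGFBP4: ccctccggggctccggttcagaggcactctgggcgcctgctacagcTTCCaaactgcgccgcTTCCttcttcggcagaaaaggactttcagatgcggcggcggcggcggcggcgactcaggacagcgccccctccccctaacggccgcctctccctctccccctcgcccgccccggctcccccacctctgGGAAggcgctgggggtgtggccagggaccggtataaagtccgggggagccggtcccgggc
IGFBP6: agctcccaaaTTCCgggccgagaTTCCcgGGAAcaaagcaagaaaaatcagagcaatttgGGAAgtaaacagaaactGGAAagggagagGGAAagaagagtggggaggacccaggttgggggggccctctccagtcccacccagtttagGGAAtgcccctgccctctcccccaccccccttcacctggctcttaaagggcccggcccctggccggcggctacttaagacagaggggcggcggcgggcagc

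The core was present 2 times before IGFBP5, 1 time before IGFBP3, 3 times before IGFBP4 and 7 times before IGFBP6, searched on both strands. Of the 35116 RefSeq windows of the same length, 92.7% held it at least 1 time and 4.10% held it at least 7 times, with a median of 3. The tandem GGAAGGAA, which contains the core on the same strand, was in none of the windows of the members and in 3.06% of all windows. TATAAA was found before IGFBP4 alone among the members, and the GC box GGGCGG before IGFBP3, IGFBP4 and IGFBP6 but not IGFBP5 among the windows shown. Over all windows, 10.72% held TATAAA and 42.6% the GC box. These matches describe the letters of the windows and do not show binding.

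Signals are given as log2 of the background-corrected intensity minus the 75th percentile of the array, so that a negative value is a probe dimmer than that percentile, and levels of different probes cannot be compared. A difference is the mean of the LOX-PP arrays minus that of the control arrays, tested with limma over the 32647 probes whose signal exceeded background clearly (the well above background flag) on 3 or more of the 6 arrays, at a Benjamini-Hochberg adjusted p under 0.05. All 13 member probes met this filter. The median difference of all tested probes was 0.13, compared with -0.03 under quantile normalization, and the difference relative to that median is given for each member as its relative difference.

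Of the 13 member probes 1 passed the test, that of IGFBP5, which is close to the background, since 5.66% of all tested probes passed, 3.31% with higher and 2.36% with lower signal. Without adjustment 6 of the 13 had a limma p under 0.05, compared with 21.3% of all tested probes. The binding proteins other than IGFBP6 were higher on the LOX-PP arrays and the receptor and the dimmer probes of IRS1 and IGF1 lower, each with groups that did not overlap but, other than IGFBP5, without passing the test. Groups did not overlap for 5 probes that were higher and 3 that were lower. Over all tested probes with a value on every array, 16.1% did not overlap in the direction of higher signal and 13.4% in that of lower signal, 29.5% in all. With each gene read from its brightest probe, the 6 binding proteins had a median difference of 0.84 and the other 4 genes of -0.30, which is 0.80 and -0.33 relative to the median of 0.03 over the 16601 genes read in the same way. All 6 binding proteins lay above the median of all tested probes, which by definition has as many probes above it as below. IGFBP6 did so by only 0.0017. All 6 were also above it under quantile normalization, while 5 of 6 were under normexp background correction, where IGFBP6 was at -0.02.

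**Figure D1:**
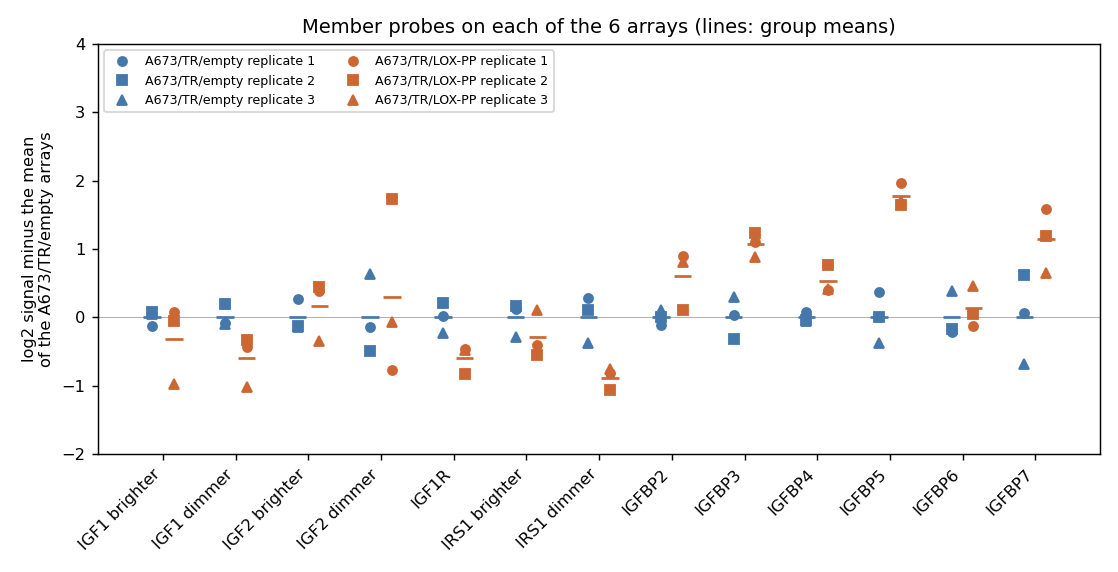
Log2 signal of each of the 13 member probes on the 6 arrays, minus the mean of the control arrays of that probe. Blue symbols are A673/TR/empty and orange symbols LOX-PP arrays, the symbol shape gives the replicate and lines are group means; the groups of IGFBP5 are separated by a gap of 1.28, while those of IGFBP2 and IGFBP7 touch within 0.0085 and 0.017.

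IGFBP5, a binding protein that also attaches to the extracellular matrix, had a log2 signal of -2.14, -2.50 and -2.88 on the control arrays (replicates 1 to 3) and of -0.54, -0.86 and -0.80 on the LOX-PP arrays. Every LOX-PP array lay above every control array, and the gap between the groups exceeded the range within either. The means were -2.51 ± 0.37 (SD, n = 3) and -0.74 ± 0.17 (SD, n = 3). IGFBP5 rose by 1.77 ± 0.26 (SE), a fold change of 3.42 with a 95% interval from 2.23 to 5.23 (adjusted p = 0.0136), and its relative difference was 1.65. RNA was taken from whole cultures, in which more expressing cells and more RNA per cell cannot be told apart. On the arrays of slide 1 alone the difference was 1.68 (adjusted p = 0.0280). The call was lost without control replicate 2 (difference 1.78, adjusted p = 0.0766), with no filter on dim probes (adjusted p = 0.0629) and in the methods' t-test (adjusted p = 0.0621).

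IGFBP3, which carries most of the circulating IGFs and is the member known as a repressed target of EWS/FLI1, had a log2 signal of -4.30, -4.65 and -4.04 in the controls, compared with -3.23, -3.10 and -3.44 on the LOX-PP arrays. It was a dim probe, read from 10 spots, that counted as well above background on all 6 arrays, for which any flagged spot was enough. Its groups did not overlap, with a gap of 0.60 between them. The means were -4.33 ± 0.31 and -3.26 ± 0.17 (SD, n = 3 each). The difference was 1.07 ± 0.24 (SE), or 2.10-fold with an interval from 1.41 to 3.14, and missed the threshold (adjusted p = 0.0534), with a relative difference of 0.95. Under quantile normalization it was 0.64 (adjusted p = 0.127). The threshold was passed where only probes well above background on all 6 arrays were tested (adjusted p = 0.0338) and over a common floor (adjusted p = 0.0435).

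**Figure D2:**
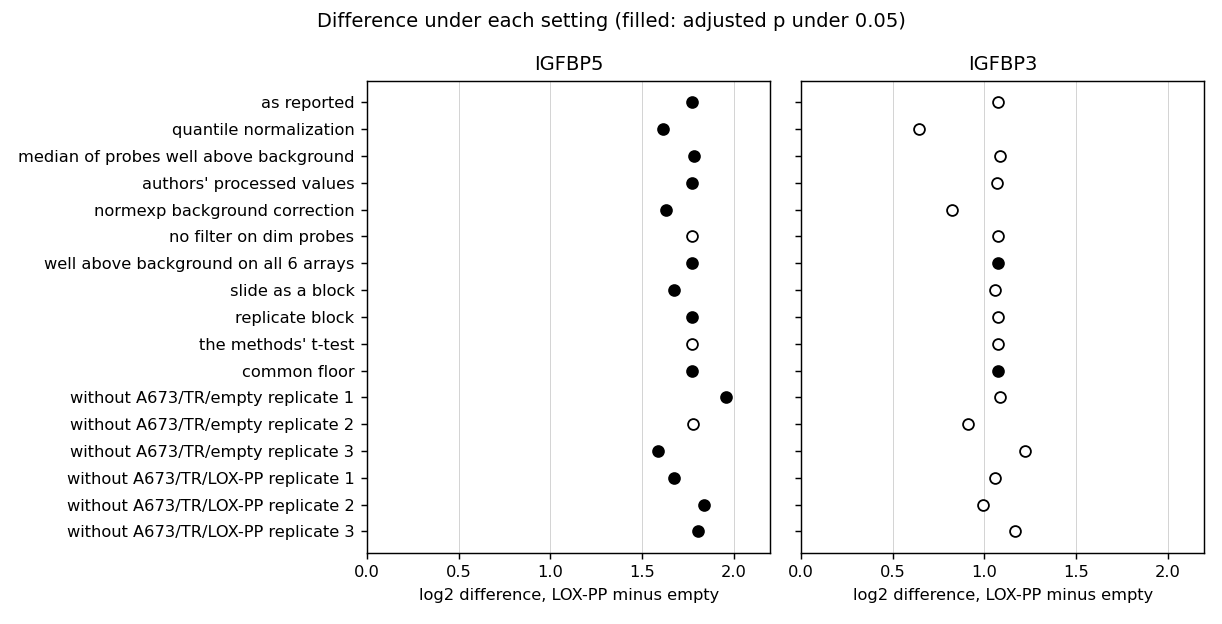
Log2 difference of IGFBP5 (left) and IGFBP3 (right), A673/TR/LOX-PP minus A673/TR/empty, as reported and under 16 other settings, filled where the adjusted p is under 0.05. IGFBP5 ran from 1.59 to 1.96 and was past the threshold in 13 of the 16, whereas IGFBP3 ran from 0.64 to 1.22 and was past it in 2. Some of the settings repeat nearly the same comparison, so they are not separate checks.

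IGFBP2, the binding protein abundant in many tumors and in fetal tissue, had a signal of 5.51, 5.63 and 5.72 in the controls, compared with 6.51, 5.73 and 6.43 on the LOX-PP arrays. Replicate 2 of LOX-PP was level with the highest control, 0.0085 above it, and the other 2 stood apart. The difference of 0.60 ± 0.27 (SE) did not pass the test (adjusted p = 0.257), was 0.48 relative to all tested probes and was 0.20 under quantile normalization. IGFBP2 and IGFBP5 are neighbouring genes on chromosome 2. The next protein-coding genes, RPL37A on the IGFBP2 side and TNS1 on the other, beyond TNP1, which did not meet the filter, had differences of 0.66 (adjusted p = 0.285) and 0.083 (adjusted p = 0.939). Further out on the IGFBP2 side, SMARCAL1 had -0.44 (adjusted p = 0.428) and MARCHF4 fell with a difference of -2.49 (adjusted p = 0.0442). These genes are named for their position only.

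IGFBP4, known mainly as an inhibitor of IGF action, had a signal of -2.51, -2.62 and -2.64 in the controls, compared with -2.18, -1.82 and -2.17 on the LOX-PP arrays. Its control arrays were the tightest of all member probes (SD 0.072, n = 3), and the groups did not overlap. The difference of 0.53 ± 0.21 (SE) did not pass the test (adjusted p = 0.211), its relative difference was 0.40, and under quantile normalization it was 0.28.

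IGFBP7, a secreted relative that binds IGFs weakly, had a signal of -2.79, -2.22 and -3.53 in the controls, compared with -1.26, -1.65 and -2.20 on the LOX-PP arrays. It spread widely within both groups (SD 0.66 and 0.47, n = 3 each), and the groups were apart by 0.017, a gap that was gone under quantile normalization. The difference of 1.14 ± 0.40 (SE) was similar in size to that of IGFBP3, but the 95% interval ran from 0.19 to 2.09 and the adjusted p was 0.165. Its relative difference was 1.01.

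IGFBP6, which prefers IGF2 as its ligand, had a signal of -1.09, -1.06 and -0.49 in the controls, compared with -1.003, -0.83 and -0.42 on the LOX-PP arrays. The groups overlapped, with replicate 3 the highest in both. The difference of 0.13 ± 0.27 (SE, adjusted p = 0.829) equalled the median of all tested probes (relative difference 0.0017), with an interval from -0.52 to 0.78.

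**Figure D3:**
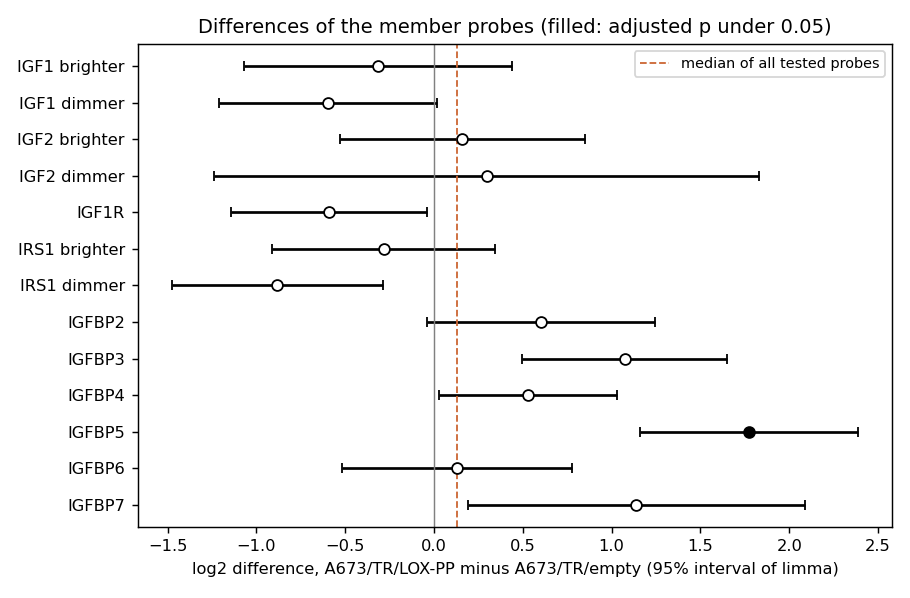
Log2 difference of each member probe, A673/TR/LOX-PP minus A673/TR/empty, with its 95% interval from limma; the filled point passed the threshold and the dashed line is the median of all tested probes (0.13). IGFBP5 alone is filled at 1.77, and the intervals of IGFBP3, IGFBP4 and IGFBP7 are above 0 while those of IGF1R and the dimmer IRS1 probe are below it, all 5 without passing the adjusted threshold.

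IGF1R, the receptor of the axis, had a signal of 1.06, 1.26 and 0.81 in the controls, compared with 0.58, 0.21 and 0.56 on the LOX-PP arrays. All LOX-PP arrays lay below all control arrays, by at least 0.23. The difference of -0.59 ± 0.23 (SE), -0.72 relative to all tested probes, did not pass the test (adjusted p = 0.204), and its interval ran from -1.14 to -0.04.

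The probes of IRS1 differed in the size of their difference. The brighter probe had 0.51, 0.55 and 0.10 in the controls, compared with -0.02, -0.16 and 0.50 on the LOX-PP arrays, so that the groups overlapped (difference -0.28 ± 0.27 SE, relative difference -0.41, adjusted p = 0.591). The dimmer probe had -0.25, -0.43 and -0.90 in the controls, compared with -1.35, -1.60 and -1.29 on the LOX-PP arrays. Its groups did not overlap, and the difference of -0.88 ± 0.25 (SE), -1.01 relative to all tested probes, did not pass the test (adjusted p = 0.0986), also under quantile normalization (adjusted p = 0.0665). Both probes carry the same transcript accession, and the files do not show which part of it each one reads.

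IGF1, the ligand that the receptor is named for, also had a pair of probes. The brighter gave 1.69, 1.89 and 1.85 in the controls, compared with 1.89, 1.76 and 0.83 on the LOX-PP arrays. Replicate 3 of LOX-PP was low and the other 2 were close to the controls, so that the difference was -0.31 ± 0.32 (SE, relative difference -0.44, adjusted p = 0.621) with it and 0.017 without it. The dimmer probe gave 0.05, 0.33 and 0.03 in the controls, compared with -0.30, -0.20 and -0.88 on the LOX-PP arrays. Replicate 3 was again the lowest, although here the groups did not overlap (difference -0.60 ± 0.26 SE, relative difference -0.72, adjusted p = 0.247), and without it the difference was -0.38.

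IGF2, the fetal growth factor expressed from an imprinted locus, showed no difference past the threshold. Its brighter probe gave -1.06, -1.46 and -1.48 in the controls, compared with -0.95, -0.89 and -1.69 on the LOX-PP arrays, with overlapping groups and a difference of 0.16 ± 0.29 (SE, relative difference 0.033, adjusted p = 0.798). The interval ran from -0.53 to 0.85, which reaches a 1.80-fold higher signal. The dimmer probe was well above background on 2 of the 3 arrays of each group, with signals from -5.24 to -4.12 and from -5.52 to -3.02 (difference 0.30 ± 0.65 SE, relative difference 0.17, adjusted p = 0.834), and its sign turned under quantile normalization and without LOX-PP replicate 2.

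The other genes of the pathway were read from a list of 77, written by role. Of these, 69 had a tested probe, 6 had none that met the filter (INS-IGF2, INSRR, IGFBP1, PAPPA2, IRS4 and GRB10, none on more than 1 array well above background) and 2 had no named probe. HTRA1, INSR and FOXO4 rose and SOCS2, PRSS23, GRB14 and RHEB fell, which makes 7 of 69 past the threshold, compared with 7.07% of the 16601 genes read from their brightest tested probe, 3.7% higher and 3.37% lower. Groups did not overlap for 13 genes that were higher and 10 that were lower, compared with 33.6% of all genes in either direction. The median difference of the 69 genes was -0.06, compared with 0.03 for all genes.

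**Figure D4:**
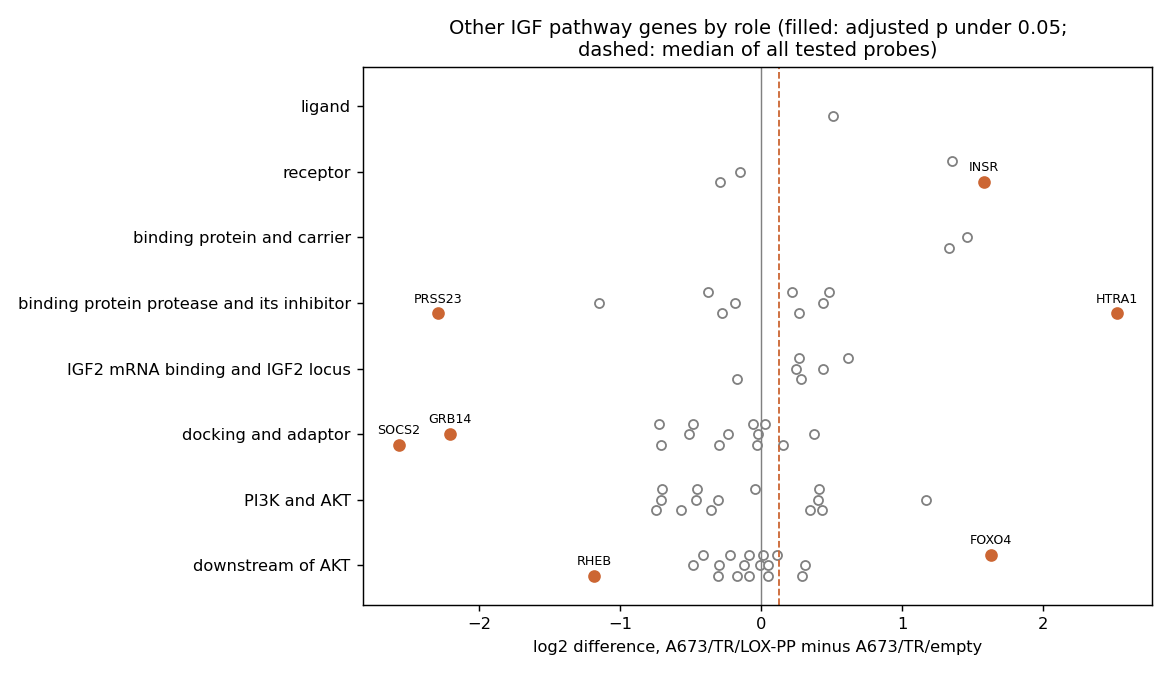
Log2 difference, A673/TR/LOX-PP minus A673/TR/empty, of the 69 tested pathway genes that are no members, arranged by role; filled points passed the threshold and are named, and the dashed line is the median of all tested probes (0.13). The differences run from -2.57 for SOCS2 to 2.52 for HTRA1.

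Among the genes listed as proteases of binding proteins or as inhibitors of such proteases, 10 were tested, 1 rose and 1 fell. HTRA1, a secreted serine protease that cleaves IGFBP5 among other substrates, had -2.48, -2.44 and -3.60 in the controls, compared with -0.50, -0.24 and -0.23 on the LOX-PP arrays. It rose by 2.52 ± 0.35 (SE), or 5.73-fold (adjusted p = 0.0116). The RNA of HTRA1 and that of IGFBP5 were thus both higher on the LOX-PP arrays, while cleavage of the protein was not tested. The call on HTRA1 was lost with no filter on dim probes (adjusted p = 0.0514) and in the methods' t-test (adjusted p = 0.0769). PRSS23, another secreted serine protease on the list, whose action on binding proteins was not tested, had -0.70, -0.03 and -1.05 in the controls. On the LOX-PP arrays it had -2.78, -2.76 and -3.13, a fall with a difference of -2.30 ± 0.31 (SE, adjusted p = 0.0100). The call on PRSS23 was lost without control replicate 1 (adjusted p = 0.0627) and in the methods' t-test (adjusted p = 0.0660).

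Of 4 receptors tested besides IGF1R, 1 rose. INSR, the insulin receptor, which can pair with IGF1R and in one isoform binds IGF2, had -0.15, -0.24 and -0.49 in the controls, compared with 1.48, 1.26 and 1.11 on the LOX-PP arrays. The groups were apart by 1.26, and INSR rose by 1.58 ± 0.22 (SE), or 2.99-fold (adjusted p = 0.0116), opposite in sign to the difference of IGF1R. The call was lost with no filter on dim probes (adjusted p = 0.0597) and without control replicate 1 or 2 (adjusted p = 0.0724 and 0.0678). LRP1, a scavenger receptor that also binds IGFBP3, was higher by 1.35 without passing the test (adjusted p = 0.0784).

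Of the 2 other binding or carrier proteins tested 0 passed the test in limma, and both had an unadjusted p under 0.05, as did 23.7% of all genes. IGFBPL1, a protein with an IGFBP domain, was higher by 1.33 (adjusted p = 0.0620), and IGFALS, which stabilises the circulating complex of IGF and IGFBP3, by 1.46 (adjusted p = 0.0834), with 1 of 3 control arrays well above background. Among the remaining ligands, INS had a difference of 0.51 (adjusted p = 0.583).

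Of 14 docking and adaptor genes 2 fell and none rose. SOCS2, a suppressor of growth hormone and IGF1 signalling, had 0.44, 0.63 and 0.37 in the controls, compared with -2.39, -1.84 and -2.04 on the LOX-PP arrays, a gap of 2.21 between the groups. Its difference of -2.57 ± 0.23 (SE, adjusted p = 0.00254) had the lowest adjusted p of the pathway list and passed the threshold under all 16 alternatives. GRB14, an adaptor that inhibits the insulin receptor, had -1.65, -1.51 and -1.08 in the controls, compared with -3.56, -3.94 and -3.36 on the LOX-PP arrays, of which 2 were well above background, with a difference of -2.21 ± 0.26 (SE, adjusted p = 0.00641). It passed under all 15 alternatives in which it was tested.

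None of the 14 genes of PI3K and AKT passed the test, and 4 had an unadjusted p under 0.05 in limma, close to the 23.7% of all genes read from their brightest probe. Their median difference was -0.33. The largest t was that of PIK3R3, a regulatory subunit, with a difference of 1.17 (adjusted p = 0.101), followed by PIK3R1, the regulatory subunit p85α, with -0.71 (adjusted p = 0.178). Of the 18 genes downstream of AKT 1 rose and 1 fell. FOXO4, a transcription factor that AKT keeps out of the nucleus, had -2.69, -3.03 and -2.65 in the controls, compared with -1.07, -1.26 and -1.15 on the LOX-PP arrays, and rose by 1.63 ± 0.21 (SE, adjusted p = 0.00907), a call lost with no filter (adjusted p = 0.0514) and without control replicate 1 or 2 (adjusted p = 0.0678 and 0.0594). RHEB, the GTPase that switches on mTORC1, had 3.33, 3.59 and 3.09 in the controls, compared with 2.11, 2.37 and 1.97 on the LOX-PP arrays, with a difference of -1.19 ± 0.24 (SE, adjusted p = 0.0364). The call on RHEB was lost without any single array (adjusted p from 0.0533 to 0.180), with a replicate block, with the slide as a block, with no filter and in the methods' t-test.

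None of the 6 genes tested around IGF2 mRNA binding and the IGF2 locus passed the test in limma, and 0 had an unadjusted p under 0.05. IGF2BP2, which binds IGF2 mRNA, was higher by 0.28 (adjusted p = 0.485), and PLAGL1, an imprinted regulator of growth genes, by 0.62 (adjusted p = 0.527). The PLAGL1 probe was well above background on 2 of the 3 arrays of each group. The genes whose signal followed IGFBP3 most closely over the 6 arrays were FMO4, SYT3, PLA2G2F, BCL2L15 and ARMH1, with Pearson correlations from 0.995 to 0.999 among 16601 genes. PLA2G2F was well above background on 1 of the 3 control arrays. These correlations hold the difference between the groups, rest on 6 points that share arrays and background, and are given as a description.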

How the data were processed

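RNA of 3 A673/TR/empty and 3 A673/TR/LOX-PP samples was labelled with Cy3 and read on Agilent SurePrint G3 arrays, and groups were taken from the sample titles. The authors deposited the spot intensity of each array from Agilent Feature Extraction (version 10.7.3.1 per the file headers), corrected for background, with flags for spots well above background and for outliers, and a table of processed log2 values. That table equals the values used here after subtraction of the median of the probe, to within 0.02 for 50537 of 50599 probes. Control and outlier spots were left out, spots of the same probe were averaged as log2 intensity, and every array was shifted by its 75th percentile. A probe counted as well above background on an array where any of its remaining spots was flagged, which is easier to meet for probes with several spots. Groups were compared with limma (version 3.58.1, run in R 4.3.3) with group as the only term; p-values were adjusted by Benjamini-Hochberg over all tested probes, with 0.05 as the threshold. Precision is limited by 3 arrays per group, and the methods describe the RNA as coming from 3 separate experiments. The p-values measure the spread between the arrays of these experiments, which also holds slide, scan day and array background. They do not measure the spread between lines or clones, since each group is a single line.

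Gene names came from RefSeq (GRCh38.p14) through the transcript accession (28174 of 50599 probes), whereas the array design names hg19, so no coordinates are given for probes. Of the pathway genes, those past the threshold and those with the largest t in each role were named. The members and lists were chosen with earlier results of these data known. Settings tried besides were normexp (offset 50), quantile normalization, scaling to the median of bright probes, the values deposited by the authors, 2 other filters, the slide or the replicate number as a block, the methods' t-test, a common floor and leaving out each array.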

Additional observations from a re-analysis of the deposited data

How the results depend on the processing

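IGFBP5 was the 1 member of 13 probes and 10 genes past the threshold under the scalings, normexp and both blocks. In limma with all probes tested, dim ones included, and in the t-test of the methods 0 passed (IGFBP5 1.77, adjusted p = 0.0629 and 0.0621), with 4 and 5 of the 13 probes at an unadjusted p under 0.05, compared with 13.0% and 19.7% of all probes, and 2 passed among probes well above background on all 6 arrays and over a common floor, where IGFBP3 (1.07) passed as well. Leaving out 1 array gave 0 to 1 member probes and genes, with 0 without A673/TR/empty replicate 2 (4 at an unadjusted p under 0.05, compared with 13.3% of all probes); IGFBP5 then ran from 1.59 to 1.96 and IGFBP3 from 0.91 to 1.22. Over all probes 1849 passed, compared with 516 unfiltered, 860 under the replicate block and 566 in the methods' t-test, and from 407 to 2062 without 1 array, the fewest without A673/TR/empty replicates 1 (407) and 2 (444), followed by A673/TR/LOX-PP replicates 2 (892) and 3 (1037). Of the other pathway genes 7 passed, compared with 3 with no filter and 4 in the methods' t-test, and from 3 to 8 without 1 array (3 without A673/TR/empty replicate 1, 4 without replicate 2). The replicate block gave an adjusted p of 0.0390 for IGFBP5 and 0.0765 for RHEB, and changed no other call on a member or a named pathway gene. Deviations from the group means correlated at 0.27, -0.39 and 0.23 between same-numbered arrays. Between arrays of unlike number the correlations ran from -0.46 to 0.39, so the numbers were not taken to pair the samples. Without 1 array the brighter IGF1 probe ran from -0.51 to 0.017, the dimmer IGF2 probe from -0.42 to 0.83 and IGFBP6 from -0.037 to 0.32. The sign turned for the brighter IGF1 probe and IGFBP6 without A673/TR/LOX-PP replicate 3, and for the dimmer IGF2 probe under quantile normalization (-0.068) and without A673/TR/LOX-PP replicate 2 (-0.42). Of 318 differences of members and called pathway genes over the 16 alternatives 289 kept direction and call, 23 lost a call, 2 gained one and 4 turned sign; the cause was not tested. The slide as a block equals leaving out A673/TR/LOX-PP replicate 1. The deposited values are those used here less the median of each probe, and scaling to the median of bright probes only shifts each array as a whole. The 16 alternatives are therefore not separate checks, and the counts over them are a description. Among the members and the named pathway genes that were tested, signal over background limits the dimmer IGF2 probe, GRB14, IGFALS and PLAGL1.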
